A study of Rattus norvegicus with 16 samples.

Results

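The caspase genes Casp1, Casp2, Casp4, Casp6, Casp8, Casp9 and Casp12 were followed in the rat epididymis, in the initial segment nearest the testis, after efferent duct ligation (EDL). The members were every probe set that the platform annotation assigned to 1 of these 7 symbols, 11 probe sets of 31042 on the array. The genes were 7 of the 14217 that had a probe set with 1 symbol. Levels are log2 values from which a background estimated by GCRMA, a correction based on probe sequence, had been removed by the authors, so a difference of 1 is a change of 2-fold. A probe set was tested when it reached a level of 5 in at least 4 of the 16 arrays. This left 8 caspase probe sets, of 6 genes, among 13410 in all. Casp12 and 2 of the 3 Casp9 probe sets never reached 5.

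The arrays fell into 4 groups of 4 adult male Sprague-Dawley rats' tissue samples: sham, and 6, 12 and 18 h of EDL. EDL ties off the ducts through which testicular fluid enters the epididymis, so the ligated side loses the testicular factors carried in that fluid. Ligation was on one side of the animal, the other side having a sham operation, and the labels give sham a time point of 0 and tie no sham array to an animal. The same 4 sham arrays served all 3 times, so the 3 comparisons with sham are not independent of each other, and no sham array gives the level at a single time. The tissue was a dissected piece of whole initial segment, in which fewer cells of a type and less RNA per cell cannot be told apart. The series title names ERK, STAT and NFKB signalling and the prevention of apoptosis, the question on which caspase transcripts bear.

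Caspases are cysteine proteases that cells make as inactive precursors and activate by dimerization or cleavage, so transcript levels do not measure their activity. Caspase-8 starts the death receptor pathway and also restrains necroptosis, caspase-9 is activated on the apoptosome after cytochrome c leaves mitochondria, and caspase-2 is an initiator linked to genotoxic stress. Caspase-6 is an executioner that cleaves lamins. Caspase-1 and caspase-4 are inflammatory caspases that drive cytokine maturation and pyroptosis, and caspase-12, studied mostly in mice, has been linked to the endoplasmic reticulum. In the initial segment, cells are known to enter apoptosis when testicular factors are withdrawn.

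In the RefSeq gene table of rat assembly GRCr8, Casp1, Casp4 and Casp12 lie next to each other on chromosome 8, with only lncRNA loci between them. Casp8 is on chromosome 9, Casp9 on chromosome 5, Casp2 on chromosome 4 and Casp6 on chromosome 2. RefSeq promoter windows were matched for 5 of the 7 genes, and none was available for Casp8 or Casp4. Of these 5, Casp1 and Casp12 each hold 1 copy of the letters GAAA, any 2 bases and GAAA again. Casp9, Casp2 and Casp6 hold 0. These letters are a core of the interferon-stimulated response element, known from genes induced by interferon. The 2 windows with a copy are shown. The first is Casp1, chr8:10872580-10872829, and the second is Casp12, chr8:10926938-10927187, both on the plus strand of GRCr8, 250 bases ending before the gene's start, with the match in capitals.
Casp1: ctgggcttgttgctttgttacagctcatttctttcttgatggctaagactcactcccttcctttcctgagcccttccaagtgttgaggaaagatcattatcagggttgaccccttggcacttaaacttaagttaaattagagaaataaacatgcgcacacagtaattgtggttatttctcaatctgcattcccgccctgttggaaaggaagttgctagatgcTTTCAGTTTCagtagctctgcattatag
Casp12: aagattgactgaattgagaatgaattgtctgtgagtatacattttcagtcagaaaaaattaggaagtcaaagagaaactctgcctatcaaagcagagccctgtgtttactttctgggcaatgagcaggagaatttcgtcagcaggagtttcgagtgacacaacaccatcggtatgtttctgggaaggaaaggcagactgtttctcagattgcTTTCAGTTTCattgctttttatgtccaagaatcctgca
Both copies read GAAACTGAAA on the minus strand and so appear reversed and complemented as TTTCAGTTTC in the lines above. The match begins 28 bases before the start of Casp1 and 38 bases before that of Casp12. Among 33469 promoters of the same length, 3.92% held this motif on either strand. The STAT motif TTCNNNGAA occurred once in the Casp12 window, 74 bases from the start, and in 0 of the other 4 windows, against 8.87% of all promoters. The NFKB motif, GGG, any 5 bases and CC, was found in Casp9, Casp2 and Casp1, with some copies overlapping, but 47.3% of all promoters held it. These are matches of letters, and binding was not measured.

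Casp8 was the caspase gene whose transcript fell after ligation. It was lower at 12 and 18 h of EDL than in sham on both of its probe sets, and the levels in the ligated arrays lay below every sham array at those times. On probe set 1380297_at, which represents the gene because its mean was the higher, the 4 arrays at 6 h read 7.12, 7.24, 7.63 and 7.26. At 12 h they read 7.03, 7.49, 7.52 and 7.10, and at 18 h 6.92, 7.05, 7.43 and 7.51, against 7.60, 7.89, 8.01 and 8.08 in sham. One array at 6 h, replicate 3, overlapped the lowest sham array, while all arrays at 12 and 18 h lay below sham, as did 5.41% of all tested probe sets at 12 h and 6.53% at 18 h. The fall was 0.61 at 12 h (log2 difference -0.61 ± 0.17, SE, n = 4 each; limma adjusted p = 0.0419) and 0.66 at 18 h (-0.66 ± 0.17; limma adjusted p = 0.0232). At 6 h the difference of -0.58 ± 0.17 was of similar size, with a limma adjusted p of 0.355.

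The other Casp8 probe set, 1369262_at, had 6.78, 7.08, 6.80 and 6.93 at 6 h and 6.49, 6.25, 6.36 and 5.95 at 12 h. At 18 h it had 6.79, 6.76, 6.50 and 6.45, against 7.29, 7.64, 7.33 and 7.47 in sham. Every ligated array, at all 3 times, lay below every sham array, and the arrays at 12 h were also below those at 6 h. Of all tested probe sets 1.54% lay wholly below sham at 6 h, and 6.42% had the 12 h arrays wholly below those at 6 h. The level was 2.25-fold lower at 12 h than in sham (log2 difference -1.17 ± 0.13; limma adjusted p = 8.51e-05) and 1.75-fold lower at 18 h (-0.81 ± 0.13; limma adjusted p = 0.00122). At 6 h the difference was -0.53 ± 0.13 with a limma adjusted p of 0.200. Between times it was lower at 12 h than at 6 h by -0.64 ± 0.13 (limma adjusted p = 0.0153), and the difference of 0.36 between 18 h and 12 h was not called (limma adjusted p = 0.600).

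**Figure D1:**
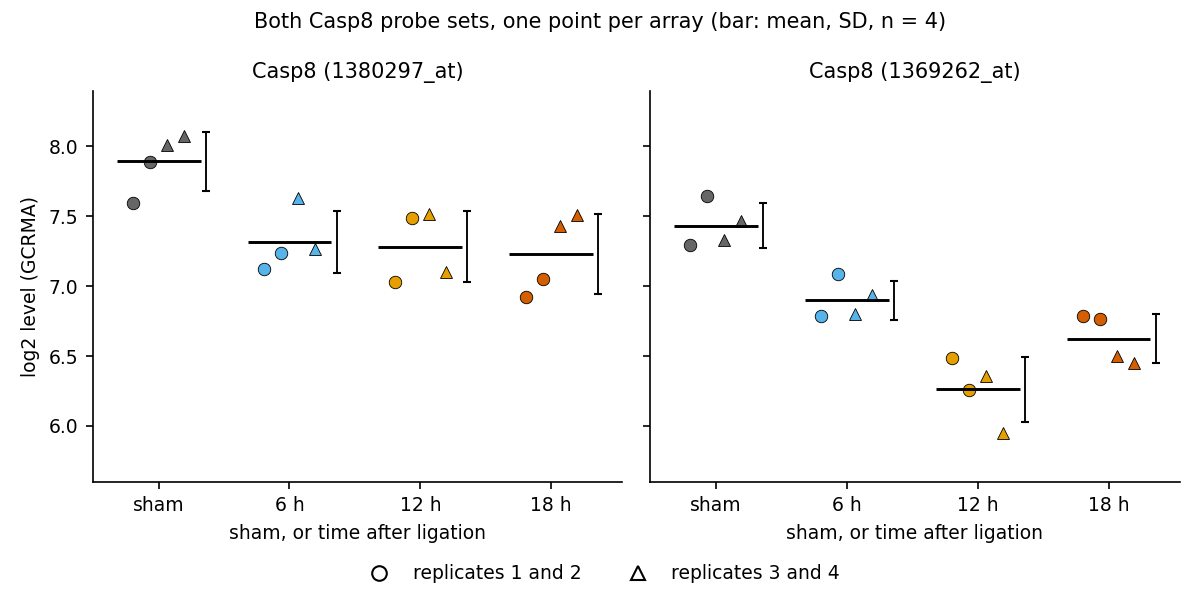
Level of both Casp8 probe sets (y axis, log2) by group (x axis: sham, then hours after ligation), 1 point per array, with the mean and SD of 4 arrays; circles are replicates 1 and 2 and triangles replicates 3 and 4. On the probe set at left the 3 ligated groups have similar means (7.31, 7.28 and 7.23, against 7.89 in sham), while on the one at right the 12 h mean (6.26) is the lowest.

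The probe sets of Casp8 agreed in direction at each time against sham and differed in shape. On 1380297_at the mean levels were 7.89 in sham, 7.31 at 6 h, 7.28 at 12 h and 7.23 at 18 h, and none of the 3 comparisons between times was called. On 1369262_at the order was sham (7.43), 6 h (6.90), 18 h (6.63) and 12 h (6.26), where neither 18 h against 6 h (-0.28; limma adjusted p = 0.240) nor 18 h against 12 h was called. At 12 h the change from sham differed by 0.56 between the probe sets. In an exact two-sided permutation test of that difference, chosen after the values were seen, p was 0.0857 with 4 arrays a group, where the smallest possible is 0.0286, and 0.514 after Benjamini-Hochberg adjustment over 12 such tests of Casp8 and Casp2. Across all 16 arrays Pearson's r between the probe sets was 0.587, and over the 12 ligated arrays alone it was -0.150, as a description. With the 2 probe sets averaged, the Casp8 difference was -0.56 ± 0.11 at 6 h (limma adjusted p = 0.0390 over 8345 genes, of which 0.312% were called). It was -0.89 at 12 h, where 9.31% of genes were called, and -0.74 at 18 h, where 11.9% were.

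The call on 1380297_at rested on single arrays and that on 1369262_at did not. At 12 h the 1380297_at call was lost without sham replicate 2, 3 or 4 or without 12 h replicate 1 or 4, with limma adjusted p between 0.0258 and 0.131 over the arrays left out. At 18 h it was lost without sham replicate 2, 3 or 4 or without 18 h replicate 1 or 2, with limma adjusted p between 0.0145 and 0.0747. On 1369262_at the calls at 12 and 18 h were kept in all 8 such fits at each time, with adjusted p of at most 0.00546. The arrays also divided by replicate number: 36.9% of all tested probe sets differed between replicates 3 and 4 and replicates 1 and 2. Within replicates 1 and 2, and within replicates 3 and 4, the 1369262_at difference was -1.10 and -1.25 at 12 h and -0.69 and -0.92 at 18 h, where the first was not called (limma adjusted p = 0.0818). The 1380297_at difference was -0.48 and -0.74 at 12 h and -0.76 and -0.57 at 18 h, all of 1 direction, and it was not called within either pair of replicates.

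Casp8 fell in samples that also held fewer sperm transcripts. Marker sums are the log2 of levels added on the linear scale, so the brightest marker weighs most. For 5 spermatid and sperm markers the sum ran from 5.26 to 9.10 at 6 h, from 5.25 to 6.84 at 12 h and from 5.26 to 5.87 at 18 h, against 8.45 to 11.3 in sham. All 3 of the tested ones (Prm1, Odf1 and Smcp) were called lower at 12 and 18 h and 1 of 3 at 6 h. Tnp1 and Akap4 had means under 5 in every group. The part of these cells in the Casp8 difference was not tested. The 9 markers of principal cells and the initial segment, the tissue's defining epithelium, all had means above 5 in every group, with summed levels of 15.3 to 15.8 over all groups. Of these 9, limma called 1 lower and 1 higher at both 12 and 18 h. Ggt1, a gamma-glutamyl transferase gene, fell by 0.60 at 12 h and by 0.76 at 18 h (limma adjusted p = 0.0434 and 0.00941), and Cldn3, a tight junction gene, was higher by 0.76 and 0.52 (limma adjusted p = 0.00732 and 0.0463). Their part in the Casp8 difference was not tested either.

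Casp4 was the caspase gene called higher at 18 h than at 6 h of EDL. Its probe set, 1387818_at, read 4.71, 4.79, 5.02 and 4.54 at 6 h and 4.10, 5.11, 7.51 and 5.43 at 12 h. At 18 h it read 6.93, 6.81, 7.43 and 5.84, against 5.16, 4.45, 4.89 and 5.45 in sham. All 4 arrays at 18 h lay above every array at 6 h and every sham array, and the arrays at 12 h were spread on both sides of sham, with replicate 3 above the highest at 18 h. Casp4 was higher at 18 h than at 6 h by at least 1.99 ± 0.54 (limma adjusted p = 0.0366, 95% confidence interval 0.83 to 3.14). The words at least are used because the 6 h mean of 4.76 lies under the level of 5. They concern the background only, and the spread between arrays allows a smaller rise. Against sham the 18 h difference was at least 1.76 ± 0.54 and missed the threshold (limma adjusted p = 0.0523, 95% confidence interval 0.61 to 2.91), although the groups did not overlap. The sham mean was 4.99, with 2 of its 4 arrays at or above 5. Of all tested probe sets 7.66% lay without overlap above sham at 18 h, and 6.67% lay so above 6 h.

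The Casp4 calls lay near the threshold and changed when single arrays were left out, while the estimates kept their direction. In the 18 alternatives the 18 h estimate ran from 1.68 to 2.29 against 6 h and from 1.45 to 2.07 against sham. The call between 18 h and 6 h was lost in 7 of the 8 fits that left out 1 array, namely each 6 h array and 18 h replicates 1, 2 and 3, with limma adjusted p from 0.0225 to 0.106. The difference from sham was called without 18 h replicate 4 (limma adjusted p = 0.0324, with the 8 fits between 0.0324 and 0.146), and it was also called with replicates 1 and 2 against 3 and 4 as a block (limma adjusted p = 0.0328, in a fit that called 16.2% of all probe sets). A block by array set, which further splits replicates 3 and 4 into sham with 6 h and 12 h with 18 h, ended the call between 18 h and 6 h (at least 1.68; limma adjusted p = 0.125), and gave at least 1.45 against sham (limma adjusted p = 0.184). The sample titles do not name such a set. Within replicates 3 and 4 that set and these comparisons cannot be told apart. Over all 18 alternatives the difference from sham had limma adjusted p between 0.0238 and 0.311 and was called in 6. Within replicates 1 and 2 it was at least 2.06, and within replicates 3 and 4 it was 1.46. At 12 h no change was measured within replicates 1 and 2, where both means lay under 5 (4.61 at 12 h, against 4.81 in sham), and the difference was 1.30 within replicates 3 and 4, and the pooled 0.55 was not called (limma adjusted p = 0.672).

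Macrophages, which use inflammatory caspases, were followed with 15 markers. Their levels were summed as for the sperm markers, and Lyz2, with a mean of 10.6 in sham, weighed most. The sum was 11.0 to 11.6 at 6 h, 10.4 to 12.7 at 12 h and 11.2 to 12.5 at 18 h, against 11.1 to 11.8 in sham. Within replicates 1 and 2 it averaged 12.5 at 18 h, against 11.6 at 6 h and 11.7 in sham, and within replicates 3 and 4 it averaged 11.4 at 18 h, against 11.0 at 6 h and 11.3 in sham, so it was highest at 18 h of these 3 groups in both. Of 11 tested, 1 (Cd14, at least 1.92 higher; limma adjusted p = 0.0158) was called at 18 h against sham and 1 (Cd68, at least 1.52 higher; limma adjusted p = 0.0217) at 18 h against 6 h. Cd163, Adgre1, Itgam and Cx3cr1 had means under 5 in every group. The 12 h array with the highest Casp4 level, replicate 3, had a macrophage sum of 11.4, within the range of sham, and S100a9, a neutrophil gene, was at 3.39 in it. S100a9 was at 8.47 and 10.4 in 12 h replicates 1 and 2, where Casp4 was at 4.10 and 5.11. The other neutrophil genes, S100a8, Csf3r and Cxcr2, had means under 5 in every group, and 0 of these 4 genes were tested. These means hide single arrays. At 12 h the highest summed level of the 4 genes exceeded the highest S100a9 level by more than other genes under 5 could add. At least 1 of the other neutrophil genes was therefore above 5 in an array at 12 h. Of the other cell types followed, the 1 tested endothelial marker of 5, Kdr, was called higher at 18 h, by 0.95 against sham and 0.85 against 6 h (limma adjusted p = 0.00876 and 0.0207), while Pecam1, Tek, Vwf and Tie1 had means under 5 in every group. The summed endothelial level was 8.13 to 8.85 at 18 h, against 7.63 to 7.92 at 6 h and 7.52 to 8.11 in sham. Of 6 smooth muscle markers 1, Actg2, was called higher at 18 h against 6 h (0.73; limma adjusted p = 0.0386), with summed levels of 12.9 to 13.3 at 18 h, against 12.3 to 13.1 at 6 h and 12.7 to 13.2 in sham. At 18 h limma called 0 of 2 tested T cell markers and 0 of 9 fibroblast markers, against sham or 6 h. The part of these cells, neutrophils and macrophages included, in the Casp4 values at 12 or 18 h was not tested. The values of single arrays at 12 h cannot decide it.

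Casp1, which activates interleukin-1 beta, had levels that overlapped between all groups. Probe set 1369186_at read 5.21, 5.24, 5.57 and 5.31 at 6 h and 4.95, 5.24, 5.75 and 4.68 at 12 h. At 18 h it read 6.14, 5.38, 5.67 and 5.28, against 4.77, 6.03, 5.78 and 6.58 in sham. Sham held both the highest array of the study and one of the lowest, and each ligated group overlapped it. The differences were -0.46 at 6 h, -0.64 at 12 h and -0.17 at 18 h, none called (at 12 h limma adjusted p = 0.309, 95% confidence interval -1.33 to 0.06). Without sham replicate 1, the low array, the 12 h difference was -0.98 and was called (limma adjusted p = 0.0392, where all 18 alternatives ran from 0.0392 to 0.745).

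Casp12 was measured at a level not told from background in every sample. Its probe set, 1387605_at, had 3.54, 3.67, 3.75 and 3.67 at 6 h and 3.96, 3.98, 3.96 and 3.67 at 12 h. At 18 h it had 3.93, 4.79, 4.66 and 4.16, against 3.75, 3.75, 3.74 and 3.67 in sham. Values repeated exactly between arrays, as some did on tested Casp9 and Casp2 probe sets. On Casp12, 7 of the 16 arrays shared a value with another. The arrays at 18 h were above those in sham, but with all means under 5 no change was measured. When no minimum level was set, the fit gave a difference of 0.66 at 18 h against sham (limma adjusted p = 0.0391) and of 0.73 against 6 h (limma adjusted p = 0.0298).

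**Figure D2:**
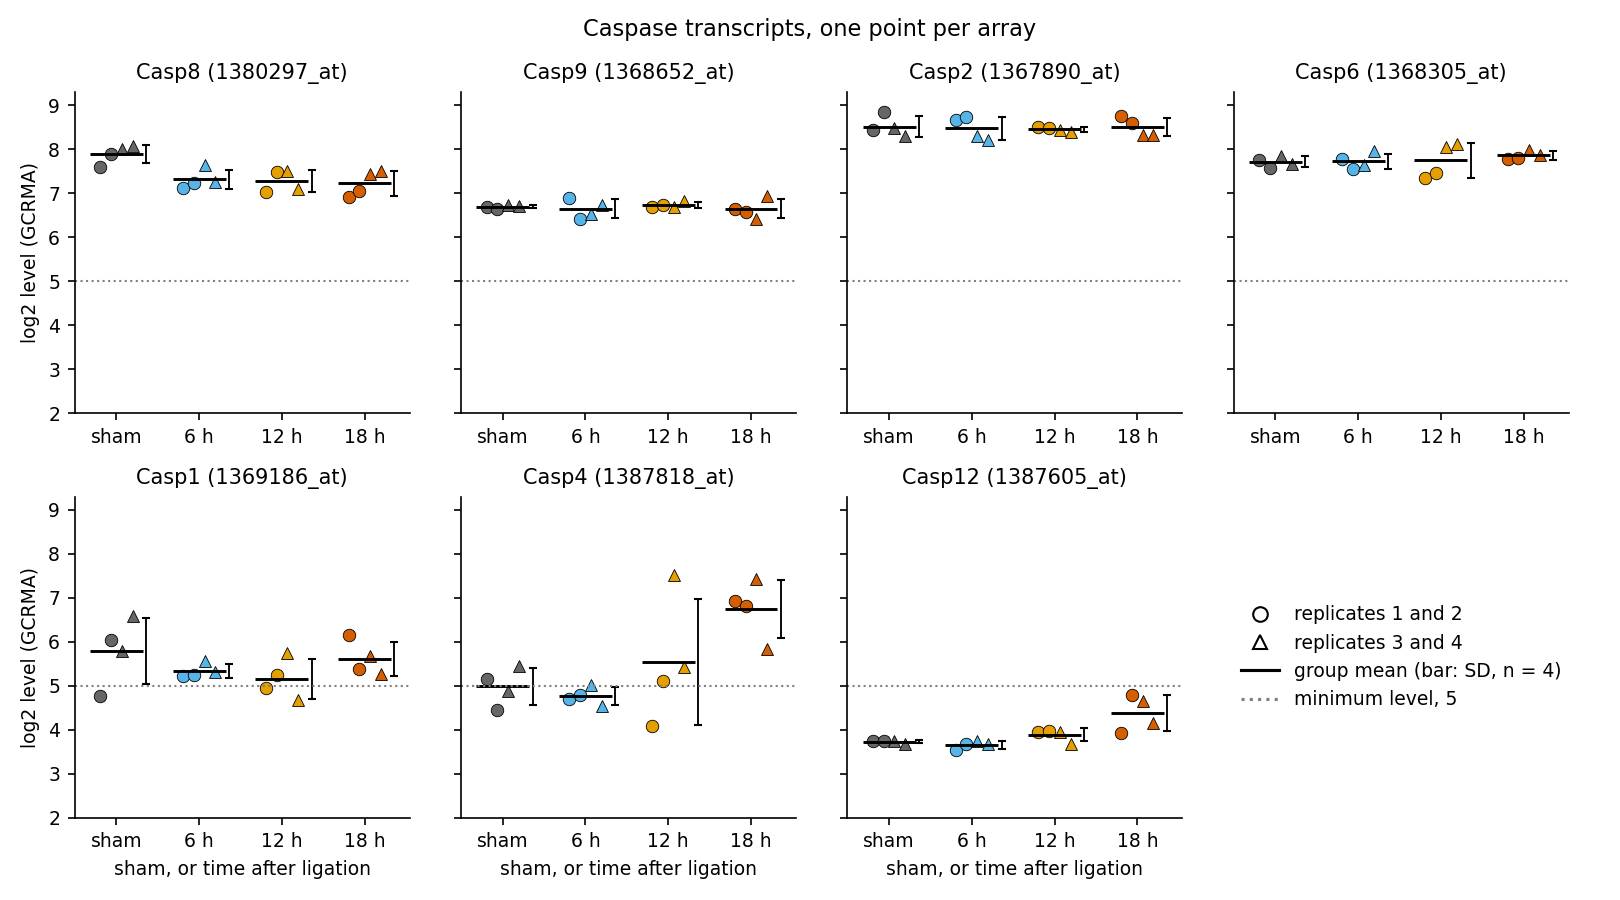
Level of each caspase gene on its probe set with the highest mean (y axis, log2) by group (x axis), 1 point per array with group mean and SD (n = 4); the dotted line marks the minimum level of 5. All Casp8 points at 12 and 18 h sit below those of sham, Casp4 at 18 h sits at 5.84 to 7.43, and Casp12 stays under 5 in all 16 arrays.

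Casp9, Casp2 and Casp6 had 0 called differences by limma in the 6 comparisons, and 0 of their 24 tests reached an unadjusted p under 0.05. Casp9, on 1368652_at, had mean levels of 6.69 in sham, 6.65 at 6 h, 6.73 at 12 h and 6.65 at 18 h, and its 95% confidence intervals against sham lay between -0.30 and 0.30. On this Casp9 probe set the value 6.69 repeated exactly in sham replicate 1 and in 12 h replicates 1 and 3. Its other probe sets lay at 2.99 to 3.29 (1388083_a_at) and at the floor of the data, 2.22, in all 16 arrays (1370737_at), so they could not show agreement. Casp2, on 1367890_at, had 8.51 in sham, 8.47 at 6 h, 8.45 at 12 h and 8.50 at 18 h, with intervals between -0.38 and 0.30. Its other probe set, 1367891_a_at, had 5.59, 5.49, 5.29 and 5.29 in that order of groups. There the value 5.38 repeated exactly in 6 h replicates 2, 3 and 4 and in 18 h replicates 1 and 2. Such repeats limit what the agreement of the Casp2 probe sets can show. The differences on 1367891_a_at reached -0.30 ± 0.24 at 18 h (limma adjusted p = 0.541), and r between the Casp2 probe sets was 0.530 over 16 arrays. Casp6, on 1368305_at, had 7.72 in sham, 7.73 at 6 h, 7.74 at 12 h and 7.86 at 18 h, and its interval at 18 h ran from -0.20 to 0.49.

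Of the 8 caspase probe sets, 3 differed between replicates 3 and 4 and replicates 1 and 2, where 36.9% of all tested probe sets did. Casp2 on 1367890_at was lower in replicates 3 and 4 than in replicates 1 and 2 by -0.28 (limma adjusted p = 0.00700), and Casp6 was higher by 0.26 (limma adjusted p = 0.0358). Casp8 on 1380297_at was higher in replicates 3 and 4 by 0.28 (limma adjusted p = 0.0376). At 12 h the Casp6 difference from sham was -0.27 within replicates 1 and 2 and 0.32 within replicates 3 and 4.

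**Figure D3:**
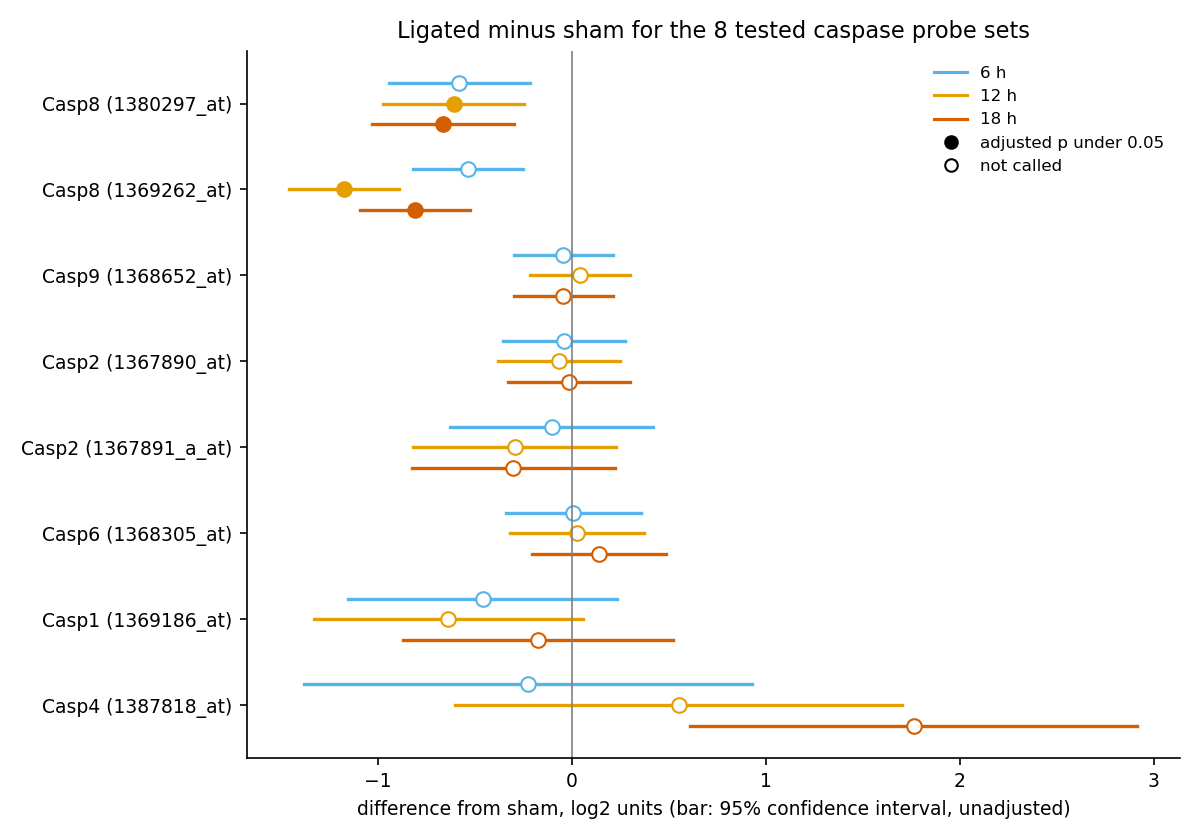
Difference from sham (x axis, log2, EDL minus sham) of the 8 tested caspase probe sets (rows) at 6, 12 and 18 h, with unadjusted 95% confidence intervals; filled points have an adjusted p under 0.05. Only the Casp8 points at 12 and 18 h are filled, and Casp4 at 18 h (1.76) is the farthest to the right with the widest intervals.

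Counted by gene, with the representative probe set, limma called 0 of 6 tested caspase genes against sham at 6 h (1, Casp8, had an unadjusted p under 0.05), 1 of 6 at 12 h and 1 of 6 at 18 h, both times Casp8. Over all tested probe sets 0.283% were called at 6 h, 7.86% at 12 h and 10.2% at 18 h, of which lower 4.09% at 12 h and 4.96% at 18 h, and 1 gene of 6 is too few to be read against these shares. The median caspase difference was -0.14 at 6 h, -0.02 at 12 h and -0.03 at 18 h, and the median over all tested probe sets was 0.02, 0.02 and 0.01 at these times. At an unadjusted p under 0.05, 764 probe sets of the array passed at 6 h. Between times 1 of 6 genes was called at 18 h against 6 h (Casp4, where 7.88% of all were called) and 0 at 12 h against 6 h (4.28%; 0 at an unadjusted p under 0.05, although the other Casp8 probe set was called) and at 18 h against 12 h (1 at an unadjusted p under 0.05, Casp4). In the last comparison limma called 0 probe sets of the whole array, although 877 had an unadjusted p under 0.05.

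The partners of the caspases were followed in 7 lists of 80 symbols, of which 44 genes were tested. At 6 h limma called 0 of 44, with 3 at an unadjusted p under 0.05, and the smallest p was that of Irf1 (0.40 ± 0.12; limma adjusted p = 0.427). Then 4 of 44 (9.09%) were called higher at 12 h and 8 of 44 (18.2%) higher at 18 h, with 0 called lower. The 18 h count was 4 without sham replicate 2 or 3 or 18 h replicate 3, and 5 without sham replicate 4 or 18 h replicate 2. In all probe sets 3.77% were called higher at 12 h and 5.2% at 18 h. The units differ, as each of the 44 genes was counted on its tested probe set with the highest mean. With probe sets averaged by gene, 9.31% of all genes were called in either direction at 12 h and 11.9% at 18 h. The lists were drawn up with results of these data known, so these counts are a description.

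Among death receptors and initiator adaptors, through which caspase-8 is recruited, 1 of 6 was called at 18 h. Ripk1, the kinase that joins death receptors to NFKB and necroptosis, was higher by 0.72 ± 0.21 (8.16 at 18 h, against 7.44 in sham; limma adjusted p = 0.0402). At 12 h its difference was 0.41 (limma adjusted p = 0.305). The median difference of that list was 0.21 at 18 h. Cflar, which encodes the caspase-8 inhibitor c-FLIP, differed by 0.07 ± 0.16 at 18 h and was not called (limma adjusted p = 0.870). In the apoptosome list limma called 0 of 7 at each time, and 2 had an unadjusted p under 0.05 at 18 h and 0 at the other times. Its smallest p at 18 h was that of Apaf1, the scaffold that activates caspase-9, with 0.52 ± 0.19 (limma adjusted p = 0.109), and at 12 h that of Aifm1 with 0.25 (limma adjusted p = 0.271).

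Of 3 tested inhibitors of the IAP family, which bind caspases or the complexes that recruit caspase-8, 2 rose at 18 h and the third, Xiap, an inhibitor of caspase-9 and of executioners, was not called. Xiap had -0.77 ± 0.39 at 18 h against sham (6.57 at 18 h, against 7.34 in sham; limma adjusted p = 0.266), and -0.97 at 18 h against 6 h (limma adjusted p = 0.146). Birc3 was higher by at least 1.57 ± 0.26 (5.89 at 18 h, against 4.32 in sham; limma adjusted p = 0.00128) and Birc2 by 0.51 ± 0.14 (limma adjusted p = 0.0350). At 12 h the Birc2 difference of 0.49 missed the threshold (limma adjusted p = 0.0527). Of 6 tested executioner substrates and related genes, Dffa, the inhibitor of the caspase-activated DNase, was called at 18 h (at least 0.59 ± 0.18; limma adjusted p = 0.0488). At 12 h the smallest p of that list was that of Lmnb1, a lamin gene (0.41; limma adjusted p = 0.341). In the inflammasome list, where 3 of 16 were tested, Pycard, the adaptor that recruits caspase-1, was higher at 12 h by 0.66 ± 0.14 (8.63 at 12 h, against 7.97 in sham; limma adjusted p = 0.00806). At 18 h its difference was 0.43 (limma adjusted p = 0.0635).

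Of 9 tested endoplasmic reticulum stress genes, Ddit3, the stress-induced transcription factor CHOP, was called at 18 h (7.99 at 18 h, against 5.98 in sham, a difference of 2.00 ± 0.53; limma adjusted p = 0.0285). Its difference from sham was 1.34 at 6 h and 1.23 at 12 h, neither called (limma adjusted p = 0.706 and 0.211). Ddit3 at 18 h against 6 h differed by 0.66 and was not called (limma adjusted p = 0.532). The median difference of that list was 0.01 at 18 h, and at 12 h its smallest p was that of Eif2ak3, the stress sensor kinase PERK (-0.41; limma adjusted p = 0.188). Of 10 interferon and STAT regulators, 3 rose at 12 h and the same 3 were called at 18 h. Irf1, a transcription factor induced by interferon, was higher by 0.98 at 12 h and by 1.42 ± 0.12 at 18 h (limma adjusted p = 0.000228 and 7.40e-06). Stat3 was higher by 1.10 and 1.97 (limma adjusted p = 0.0375 and 0.000722), and Stat2 by 0.98 and 1.07 (limma adjusted p = 0.00364 and 0.00146).

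**Figure D4:**
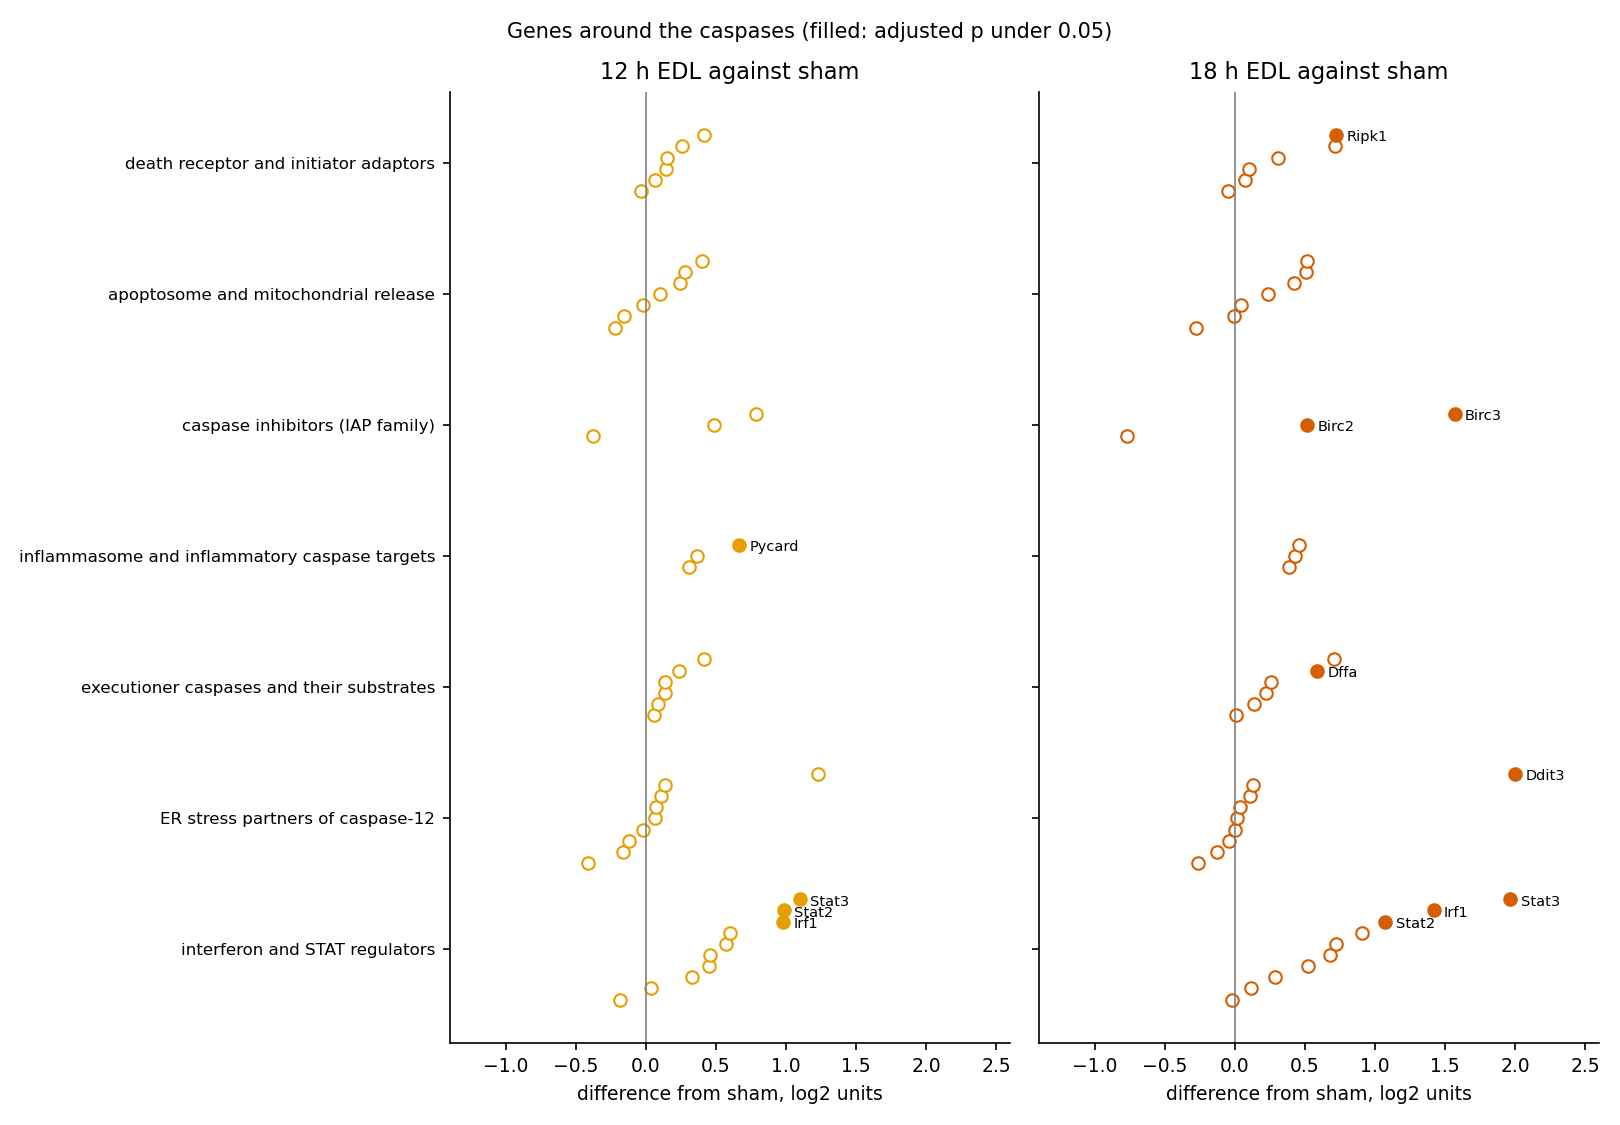
Difference from sham (x axis, log2, EDL minus sham) of the 44 tested partner genes at 12 h and 18 h, 1 point per gene, in the 7 lists (rows); filled, named points have an adjusted p under 0.05. All filled points are right of 0, 4 at 12 h and 8 at 18 h, with Ddit3 (2.00) and Stat3 (1.97) farthest at 18 h.

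The genes whose pattern was most like that of Casp8 on 1380297_at were sought among 8344 genes by Pearson's r over 16 arrays, with values centred within replicates 1 and 2 and within replicates 3 and 4. They were Pawr (r = 0.923), which encodes a pro-apoptotic regulator, Nav2 (r = 0.888) and Tmem39b (r = 0.873). Pawr had mean levels of 9.54 in sham, 8.55 at 6 h, 8.32 at 12 h and 8.43 at 18 h. Nav2 had 8.03 in sham and 6.24, 6.10 and 6.10 at the 3 times. The points share 4 groups and the sham arrays, and r is given as a description.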

How the data were processed

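Each of 16 tissue samples was measured on an Affymetrix rat array of its own. The deposited log2 values were made by the authors with GCRMA, per the submitters' processing notes (version not given in the sources used here). Scanner files were not analysed here. The lowest value was 2.22, and 31.2% to 33.0% of probe sets on an array lay there. Of 31042 probe sets left after 57 controls, 20826 had 1 gene symbol in the platform annotation and 436 several; 20758 were found by Entrez ID in the GRCr8 gene table and 0 symbols changed.

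Differences were fitted with limma 3.58.1 (lmFit and eBayes) in R 4.3.3, as 4 group means over 16 arrays, on probe sets at or above 5 in at least 4 arrays. P-values were adjusted by Benjamini-Hochberg over 13410 probe sets within a comparison, and adjusted p-values under 0.05 were called. A group mean under 5 was treated as background, and changes from it are given as at least the estimate. That wording does not cover the spread between arrays, which allows smaller changes. The fit was tested on simulated data. Labels call the replicates biological without naming animals, so p-values measure the spread between these arrays, whose number limits the precision.

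Named were all 7 caspases, from each partner list up to 3 called genes or the one with the smallest p, and 3 genes most like a called caspase. Cflar was chosen after its values were seen. Members, lists and tests were chosen with earlier results of these data known. Alternatives were no minimum, a minimum of 7, median centring, quantile normalization again, a trend and robust prior, 2 groups only, blocks and fits by replicates 1 and 2 against 3 and 4, a block by array set (replicates 3 and 4 further split into sham with 6 h and 12 h with 18 h), the replicate block, probe sets averaged, and each array left out. Deviations of same-numbered arrays correlated at 0.0065 or more for replicate 1, and at least at 0.206, 0.423 and 0.313 for replicates 2, 3 and 4. These deviations still held the split of replicates 1 and 2 from 3 and 4, which can raise such correlations. Since replicate 1 held a pair near 0, the replicate block was kept as an alternative.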

Additional observations from a re-analysis of the deposited data

Results flagged for a closer look

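Of 44 groups of 4 arrays (11 probe sets in 4 groups), 40 had any spread, and 6 of these held an array that stood apart from the other 3 by the Dixon criterion. Chance gives about 1 in 20 groups for values without ties, a rate that does not hold for tied values. On Casp2 1367891_a_at these were an array at 6 h (5.80) and one at 18 h (5.02). On Casp12 they were an array at 12 h (3.67) and one in sham (3.67), and on Casp9 1388083_a_at an array at 18 h (2.99) and one in sham (3.14). The Casp12 and Casp9 values lie under 5. On Casp2 1367891_a_at the other 3 arrays at 6 h shared 1 value (5.38), and at 18 h the others lay at 5.38 too. In both groups of Casp9 1388083_a_at the other 3 arrays shared 1 value (3.16).

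Times differed for 2 probe sets by limma. Casp8 1369262_at was lower at 12 h than at 6 h by -0.64 (limma adjusted p = 0.0153). In the 19 alternatives the adjusted p ran from 0.00491 to 0.143 and 15 kept the call, and without 6 h replicate 2 it was 0.0509. Casp4 was higher at 18 h than at 6 h by at least 1.99 (limma adjusted p = 0.0366, from 0.0110 to 0.244 in 18 alternatives, of which 8 kept the call).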

How the results depend on the processing

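Casp8 on the representative probe set kept its direction against sham under every alternative run, and the caspase count moved with single calls near the threshold. At 12 h against sham the count of 1 became 0 with no minimum level, with only the 2 groups compared, within replicates 1 and 2 and within replicates 3 and 4, and ran from 0 to 2 with an array left out. At 18 h the count of 1 became 2 with quantile normalization again, the replicate block, replicates 1 and 2 against 3 and 4 as a block or probe sets averaged, as Casp4 was added, and 0 within replicates 3 and 4, and ran from 0 to 2 with an array left out. There a count of 1 was another gene in 3 settings, Casp12 with no minimum level and Casp4 with only the 2 groups compared or within replicates 1 and 2. At 6 h it became 1 (Casp8) with probe sets averaged. At 18 h against 6 h the count of 1 became 0 with a minimum of 7 (Casp4 untested), with the array set as a block and within replicates 3 and 4, ran from 0 to 1 with an array left out, and was Casp12 in place of Casp4 with no minimum. Partner genes called at 12 h went from 4 to 2 with only the 2 groups compared, to 8 with the replicate block and to 2 within replicates 3 and 4. At 18 h the 8 became 5 with no minimum level, 16 with the replicate block, 14 with replicates 1 and 2 against 3 and 4 as a block and 2 within replicates 3 and 4, and ran from 4 to 9 with an array left out. The replicate block is given as an alternative, although replicate 1 held a pair of arrays correlated near 0. In the same correlations 11 of 16 arrays went best with an array of their own number. The split of replicates 1 and 2 from 3 and 4 was left in and can raise that count, so it cannot show pairing by number. Of 888 recomputed single values, 848 kept their side of the threshold, 33 lost a call, 7 gained one and 0 turned a called sign; 79 that were not called changed sign and are among the 848. The fits within replicates use fewer arrays. The array set block uses all of them, but splits 12 and 18 h from sham and 6 h within replicates 3 and 4. The cause was not tested otherwise.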
